A study of Homo sapiens with 4 samples.

Results

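The proteasome genes were the genes of the deposited table whose symbol is PSMA, PSMB, PSMC, PSMD, PSME, PSMF or PSMG followed by a number, or POMP. The rule found 47 of the 13957 genes in the table. The cells were MDA-MB-231 Fluc, a line derived from the MDA-MB-231 triple-negative breast cancer line by inserting a luciferase gene, and all libraries came from this 1 line. Of the 4 libraries, 2 came from cells that received 50 μM cordycepin and 2 from cells that received only the vehicle, DMSO, each for 2 h. Cordycepin is an adenosine analogue that, as its triphosphate, inhibits the addition of poly(A) tails to mRNAs. The authors' value per gene that was used is 1 mean over both groups, on the log2 CPM scale (read counts scaled to library size), so every level below mixes treated and control cells, has no SD and describes no effect of cordycepin. That effect was not analysed here, because the table gives it only as the authors' own comparison.

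The proteasome is the barrel-shaped protease that degrades most ubiquitin-tagged proteins of the cytosol and nucleus. Its core particle is a stack of alpha and beta rings with the catalytic sites inside, and its regulatory particle consists of a base with a ring of ATPases, which unfold substrates, and a lid, which removes ubiquitin. Dedicated chaperones assemble both particles and stay outside the finished enzyme, and within a finished particle the subunits of a ring are present in equal numbers. In most cells the core carries constitutive catalytic subunits, and interferon-γ induces alternative ones that form the immunoproteasome.

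Some of the genes have near-identical copies elsewhere in the genome. The sequences below are shown because they set what a single 75-base read can tell apart. PSMC1, an ATPase of the base, lies on chromosome 14 (GRCh38, 90256527 to 90275429, plus strand). Its processed pseudogene PSMC1P1, an intronless copy, lies on chromosome 3 (68635705 to 68637024, plus strand). Of 17 successive stretches of 75 coding bases of PSMC1, read from GENCODE release 44 transcripts, 16 were identical in PSMC1P1, the first included. In the other stretch, coding bases 826 to 900, there was 1 difference, the substitution T885A, with positions counted from 1 at the A of the start codon. It changes codon 295 from tyrosine to a stop in the pseudogene. PSMD2, the large scaffold subunit of the base, and its pseudogene AL359918.2 (chromosome 1, 240142670 to 240145389, minus strand) are shown for contrast, with 11 differences in the first stretch. Every sequence runs 5′ to 3′, and the capitals mark the bases that differ between gene and pseudogene.
PSMC1, coding bases 1 to 75: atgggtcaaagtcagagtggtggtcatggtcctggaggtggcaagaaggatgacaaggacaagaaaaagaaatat
PSMC1P1, same stretch: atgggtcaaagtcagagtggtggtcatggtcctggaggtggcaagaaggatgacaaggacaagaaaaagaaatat
PSMC1, coding bases 826 to 900: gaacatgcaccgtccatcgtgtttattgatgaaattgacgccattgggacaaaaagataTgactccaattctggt
PSMC1P1, same stretch: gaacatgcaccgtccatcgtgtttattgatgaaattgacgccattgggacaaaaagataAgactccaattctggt
PSMD2, coding bases 1 to 75: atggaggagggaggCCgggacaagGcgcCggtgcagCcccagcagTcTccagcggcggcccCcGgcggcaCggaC
AL359918.2, same stretch: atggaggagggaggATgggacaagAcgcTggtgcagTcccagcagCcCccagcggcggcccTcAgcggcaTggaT

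As a group, the proteasome genes were expressed well above the typical gene of the table. Their median level was 7.15 log2 CPM, from 2.74 for PSMB10 to 9.999 for PSMD2. Because a long transcript gives more fragments than a short one, levels of different genes are compared below as log2 CPM per kb of the canonical transcript. On that scale the median of the 47 genes was 6.0, against 3.04 over the 13922 genes of the table that have such a length. Above the table's median were 44 of the 47, and the exceptions were PSMC1, PSMA2 and PSMB10. Of the 47, 36 lay above the 75th percentile and 24 above the 90th. Their summed CPM made up 0.711% of the table's total. For 82 genes picked by symbol as cytosolic ribosomal protein genes it was 3.04%, with a median of 8.21 log2 CPM per kb. That symbol pattern also admits related genes with similar names, and sequence shared with other genes was not examined for the 82. PSMA8 and PSMB11, which encode the testis-specific alpha subunit and the thymus-specific catalytic subunit, were not among the table's genes.

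The core particle genes had the higher median of the pair of particles, by an amount that depended on the length used, and both particles stood above the chaperones. The 14 core particle genes had a median of 7.19 log2 CPM per kb and the 17 regulatory particle genes one of 6.59, a difference of 0.61 between the medians. The difference was 1.20 with the longest transcript of each gene, 1.28 with the union of its exons and 0.079 without scaling by length. The 5 core particle chaperones had a median of 5.55 and the 3 regulatory particle chaperones one of 4.44. The order of the chaperone groups turned with the length used, to 4.12 against 4.44 with the longest transcript and 3.65 against 4.06 with the union of exons. For the 4 activators the median was 6.38, and for the 3 inducible catalytic subunits 3.97. Within each particle the genes spread far more than the medians differed, over 6.04 log2 units in the core particle and 7.65 in the regulatory particle, so the groups overlapped.

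**Figure D1:**
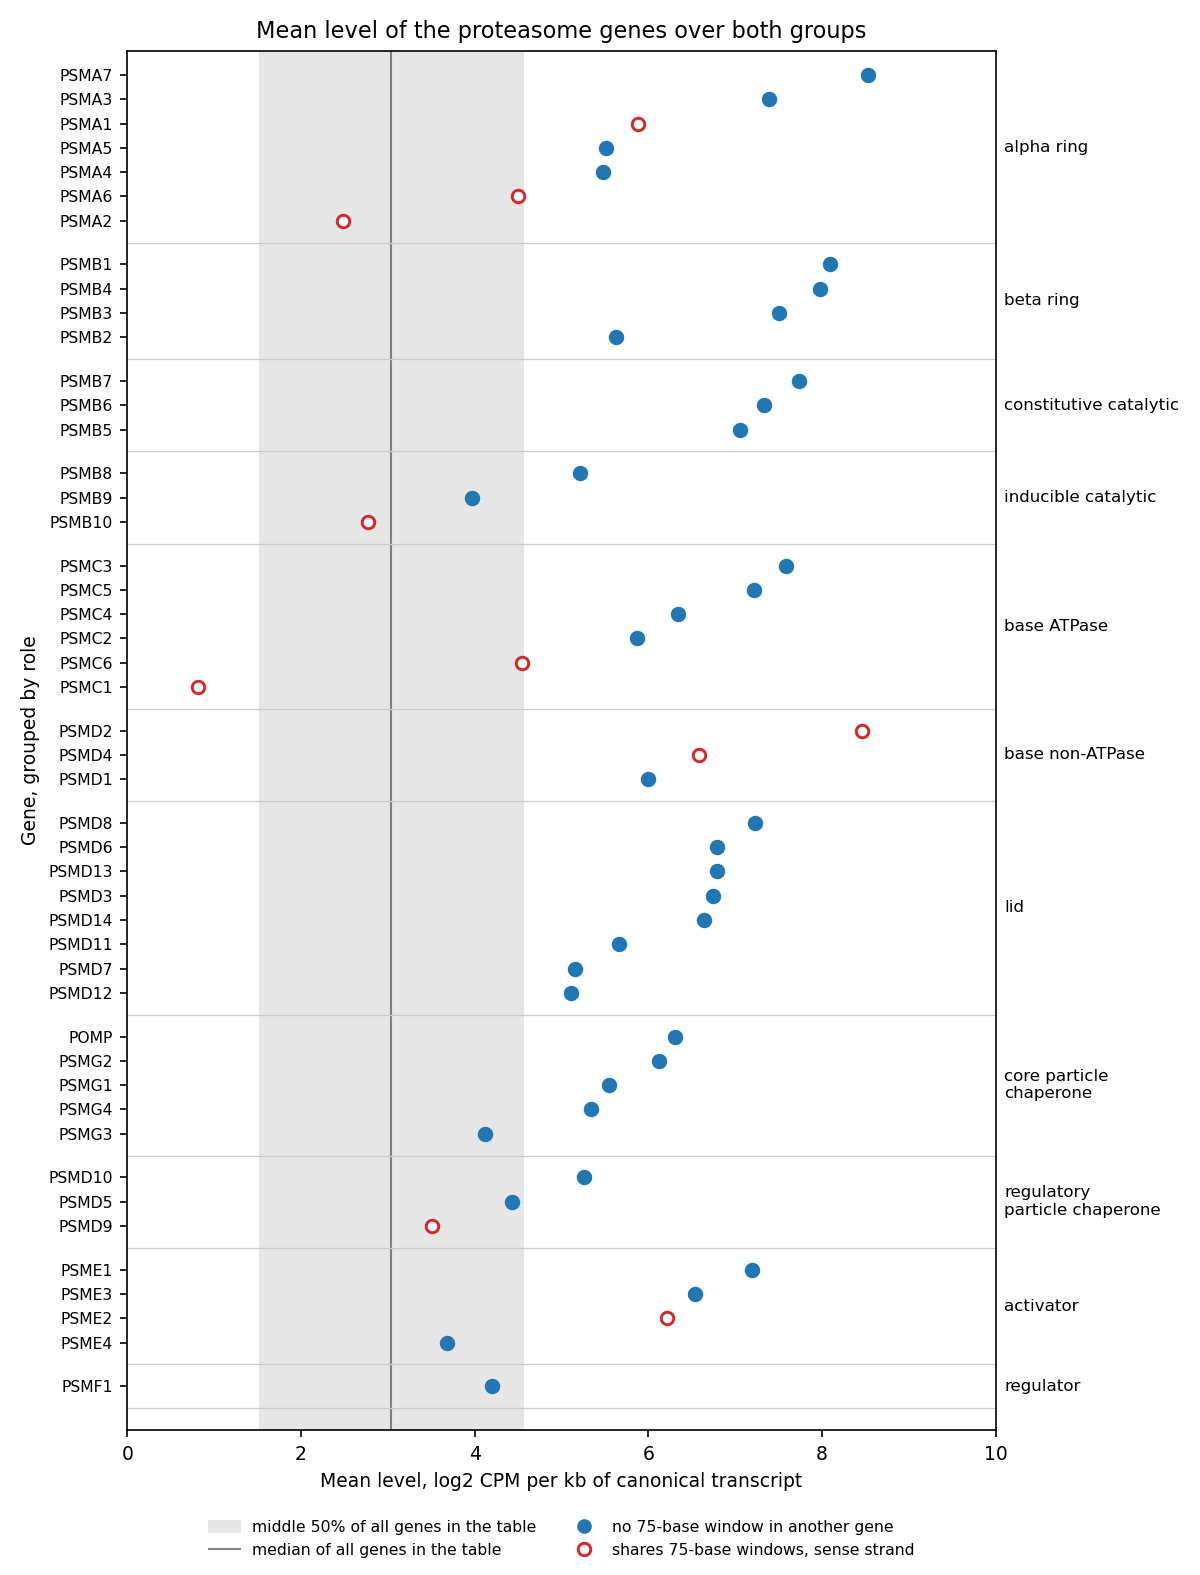
Each point is 1 proteasome gene at its mean level over both groups (x axis, log2 CPM per kb of canonical transcript), grouped by role, with the middle 50% of all genes in grey and their median of 3.04 as a line. Open red circles are the 10 genes that share 75-base windows with another gene on the same strand, and they include PSMC1 at 0.81, PSMA2 at 2.49 and PSMB10 at 2.77.

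The alpha ring, which gates the entry to the core, had the widest spread among the core particle genes. PSMA7 was the highest of all 47 genes per kb, at 8.53 (8.47 log2 CPM), followed within the ring by PSMA3 at 7.39. PSMA1, PSMA5 and PSMA4 lay close together between 5.47 and 5.88, though by log2 CPM without length they were at 6.14, 7.44 and 7.61. The lowest were PSMA6 at 4.50 and PSMA2 at 2.49, the latter at 3.01 log2 CPM. PSMA2 (chromosome 7, 42916861 to 42932185) lies inside an annotated protein-coding gene without a symbol, ENSG00000256646 (42909273 to 42932214, same strand), and every 75-base window of its canonical transcript also occurs in transcripts of that gene.

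The beta ring genes were high with 1 exception. Among the subunits without a catalytic site, PSMB1 was at 8.09, PSMB4 at 7.98 and PSMB3 at 7.51 log2 CPM per kb, and PSMB2 was at 5.62. Without scaling by length PSMB2 was no exception, since its log2 CPM of 7.77 lay between those of PSMB3 (7.12) and PSMB1 (7.93). The constitutive catalytic subunits were the most even role. PSMB7, with the trypsin-like site, was at 7.74, PSMB6, with the caspase-like site, at 7.33, and PSMB5, with the chymotrypsin-like site, at 7.06, which is a 1.60-fold range.

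Each inducible catalytic gene was below its constitutive counterpart, by a different margin. PSMB8 was at 37.0 CPM per kb and PSMB5 at 134, so PSMB8 made up 21.7% of the pair. PSMB9 was at 15.7 and PSMB6 at 161, or 8.90% for PSMB9. PSMB10 was at 6.82 and PSMB7 at 213, or 3.10% for PSMB10. The constitutive gene was thus 3.61-fold, 10.2-fold and 31.3-fold higher in the order given. With other lengths PSMB8 made up 12.3% (longest transcript) or 11.7% (union of exons) and PSMB9 3.78% or 4.97%. PSMB8 and PSMB9 overlap by 544 bases on chromosome 6 (32840717 to 32844679 and 32844136 to 32859851), beside the antigen transporter genes of the major histocompatibility complex. PSMB10 shares 44.4% of its windows with an overlapping annotated gene on its strand, whereas PSMB8 and PSMB9 share none. The proteins of a pair are related but far from identical at the sequence level: identity over translated GENCODE coding sequences was 62.8% for PSMB5 and PSMB8, 59.8% for PSMB6 and PSMB9 and 56.8% for PSMB7 and PSMB10.

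**Figure D2:**
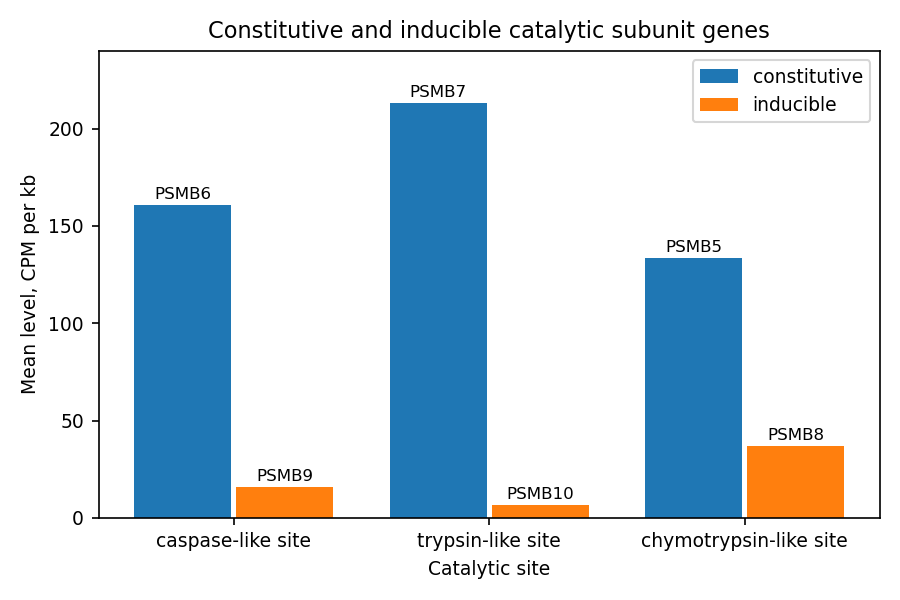
Bars give the mean level over both groups (y axis, CPM per kb of canonical transcript, linear from 0) of the constitutive and the inducible gene for each catalytic site. The inducible gene is the lower bar at each site, and PSMB8 at 37.0 is the highest of the inducible genes.

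The 6 ATPases of the base form 1 ring, and their levels per kb ranged over 6.78 log2 units, against 6.04 in the alpha ring. Among genes with no shared window (described below) the ranges were 1.72 and 3.05. PSMC3 was highest at 7.59 log2 CPM per kb, followed by PSMC5 at 7.22, PSMC4 at 6.35 and PSMC2 at 5.87. PSMC6 was at 4.55. PSMC1 was the lowest of all 47 genes per kb, at 0.81, over a canonical transcript of 4390 bases. By log2 CPM without length PSMC1 was at 2.94, above PSMB10 at 2.74. The ATPases are one protein family, with identities between pairs from 39.8% for PSMC2 and PSMC4 to 48.1% for PSMC2 and PSMC5, and no ATPase transcript shared a 75-base window with another gene of the family.

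The non-ATPase subunits of the base included the gene with the most reads. PSMD2 (chromosome 3, 184299198 to 184309050) was at 9.999 log2 CPM and 8.46 log2 CPM per kb. It held 14.3% of the summed CPM of the 47 genes and was 2.88-fold above the next gene by CPM. PSMD1, the other large scaffold subunit, was at 6.0 per kb, and PSMD4, a ubiquitin receptor, was at 6.59. The 8 lid genes were more even, over a 4.33-fold range per kb. The highest was PSMD8 at 7.23 and the lowest PSMD12 at 5.11. By log2 CPM without length, PSMD3 was the highest at 7.85 and PSMD7 the lowest at 5.86, with PSMD12 at 7.23. PSMD6, PSMD13 and PSMD3 were at 6.80, 6.79 and 6.75, and PSMD11 at 5.66. PSMD14, the deubiquitinase of the lid, lay between them at 6.65, and PSMD7, its partner in the same dimer, was at 5.16.

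Of the chaperone genes, POMP and PSMG2 alone lay above the median of the proteasome genes. For the core particle, POMP, which helps the beta ring mature, was at 6.31 log2 CPM per kb. PSMG2 was at 6.12 and PSMG1 at 5.55, and these encode the heterodimer that guides the alpha ring. PSMG3 and PSMG4 encode the other alpha ring dimer, and were at 4.12 and 5.34. For the base of the regulatory particle, PSMD10 was at 5.26, PSMD5 at 4.44 and PSMD9 at 3.50. Every chaperone gene was above the table's median of 3.04, and none reached the median of the core particle genes.

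Among the activators, which cap the core in place of the regulatory particle, PSME1 was at 7.20, PSME3 at 6.54, PSME2 at 6.22 and PSME4 at 3.68 log2 CPM per kb. PSME1 and PSME2 encode the interferon-inducible ring and lie 4394 bases apart on chromosome 14. Both were higher per kb than each of the 3 inducible catalytic genes. PSMF1, which encodes a protein that binds the core and can inhibit it, was at 4.20 per kb with a log2 CPM of 7.23. It is a gene whose rank depends strongly on the scale, since it has the longest canonical transcript of the set.

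The low outliers of the rings were mostly genes whose sequence is shared. A window of 75 bases of the canonical transcript, the length of a read, was called shared when it also occurs on the same strand in transcripts of another annotated gene. A window stands for a single read, and the other read of a pair was not considered. Only exact matches were counted, so windows that differ by a few bases are left out. For example, 1 of 15 coding stretches of PSMD4 was identical in PIPSL, a pseudogene, but 11 had at most 2 differences. Some windows were shared in 10 of the 47 genes and none in the other 37. How many of the other genes of the table share windows was not counted. The shares were 100% for PSMA2, 84.0% for PSMA6, 58.4% for PSMA1, 44.4% for PSMB10, 27.3% for PSMC1, 18.6% for PSMD9, 15.7% for PSMC6, 11.9% for PSMD4, 7.93% for PSME2 and 4.65% for PSMD2. The 10 genes had a median of 4.52 log2 CPM per kb, and the 37 genes one of 6.31. Of the 5 genes lowest by log2 CPM, 4 share windows (PSMB10, PSMC1, PSMA2 and PSMA6) and PSMB9 does not. PSMD2, with the smallest share of the 10, was the highest gene by CPM. Per kb, PSMD4, PSME2 and PSMD2 lay above the median of the 47 genes, 6.0. The genes with larger shares, from PSMA2 to PSMC6, all lay below it. By log2 CPM without length, only PSMD2 of the 10 lay above the median of the 47 genes, 7.15. The handling of reads that fit more than one gene is not given in the sources used here, and the part of shared sequence in these levels was not tested.

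**Figure D3:**
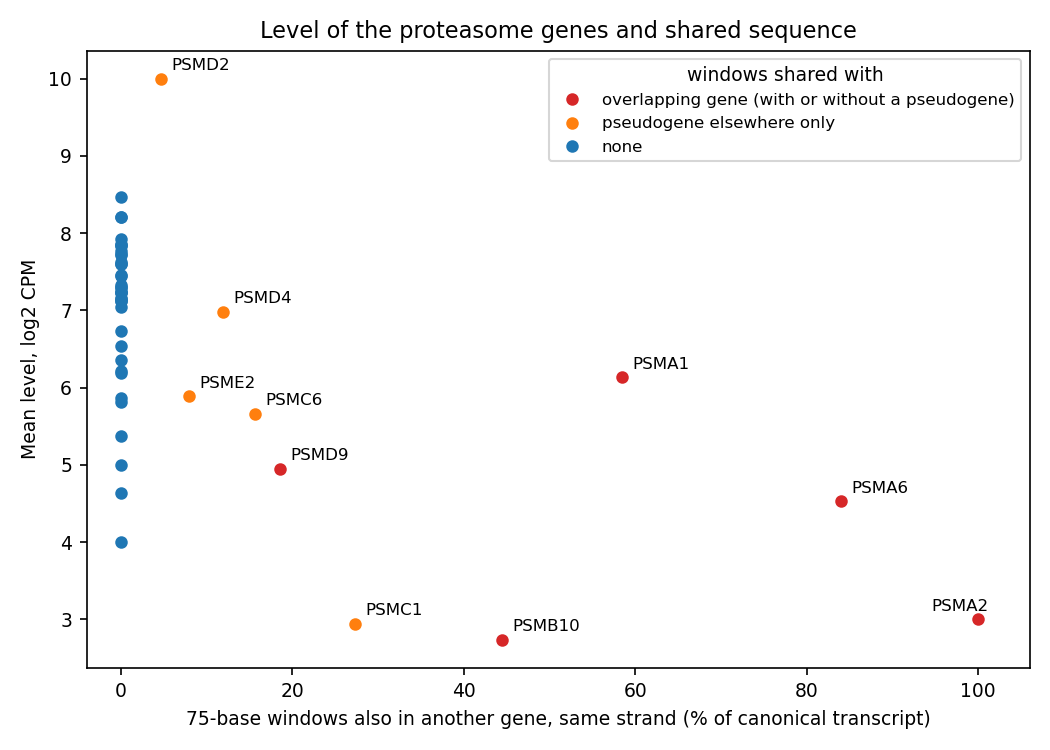
Each point is 1 of the 47 proteasome genes, with the share of 75-base windows also found in another gene on the same strand (x axis, % of the canonical transcript) and the mean level over both groups (y axis, log2 CPM). The 37 genes at 0% lie between 3.997 and 8.47, and 4 of the 10 genes with shared windows are among the 5 lowest genes.

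Leaving out the genes with shared windows narrowed the range of both particles. The 31 genes of the core and regulatory particles together ranged over 7.72 log2 units per kb. The 24 of them with no shared window lay between 5.11 and 8.53, a range of 3.42 or 10.7-fold, with a median of 6.79. In the alpha ring, the 4 genes with no shared window were at 5.47 to 8.53 log2 CPM per kb and the other 3 at 2.49 to 5.88. These overlapped, since PSMA1 lay above PSMA5 and PSMA4, though by log2 CPM without length (7.33 to 8.47 against 3.01 to 6.14) they did not. The 4 base ATPases with no shared window were at 5.87 to 7.59 per kb, above PSMC6 and PSMC1. The split by shared sequence was chosen after the values were seen, so these ranges are descriptions.

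Windows were shared with 2 kinds of gene. For 5 of the genes (PSMA2, PSMA6, PSMA1, PSMB10 and PSMD9) the partner is an annotated protein-coding gene that overlaps the same locus, and 0 of these 5 partners are in the table. For 6 genes the partners are 14 processed pseudogenes elsewhere, of which 10 are in the table with a level of their own. PSMC1P1 was at 7.67 log2 CPM, 4.72 log2 units or 26.4-fold above PSMC1 itself. The PSMC6 pseudogene AC046176.1 was at 5.80, near PSMC6 at 5.66. AL359918.2 was at 5.08, well below PSMD2, and PIPSL, which contains a copy of PSMD4, was at 4.77 against 6.99.

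Adding the CPM of these pseudogenes to their genes moved PSMC1 most. Its level went from 2.94 to 7.77 log2 CPM with 3 pseudogenes added, of which 3.53% was on PSMC1. Per kb it went from 0.81 to 5.63, with the sum divided by the PSMC1 transcript length (4390 bases) and not by those of the pseudogenes. PSMC6 went from 5.66 to 6.73 log2 CPM and PSMA6 from 4.53 to 5.55, with 47.6% and 49.5% on the gene itself. The PSMA6 pseudogene with the higher level, PSMA6P1 at 4.40 log2 CPM, lies on chromosome Y. Whether its reads came from that locus was not tested. For PSMD2, 96.8% was on the gene, for PSMD4 82.3% and for PSME2 72.5%. The whole CPM of a pseudogene was added, so for PIPSL any reads from outside its copy of PSMD4 count too. The copies differed in likeness. AL359918.2 matched PSMD2 in 2 of 36 coding stretches, with 217 differences in all, and PSMC1P1 matched PSMC1 in 16 of 17. Reads of PSMC1 and true transcripts of PSMC1P1 cannot be told apart from a mean level.

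**Figure D4:**
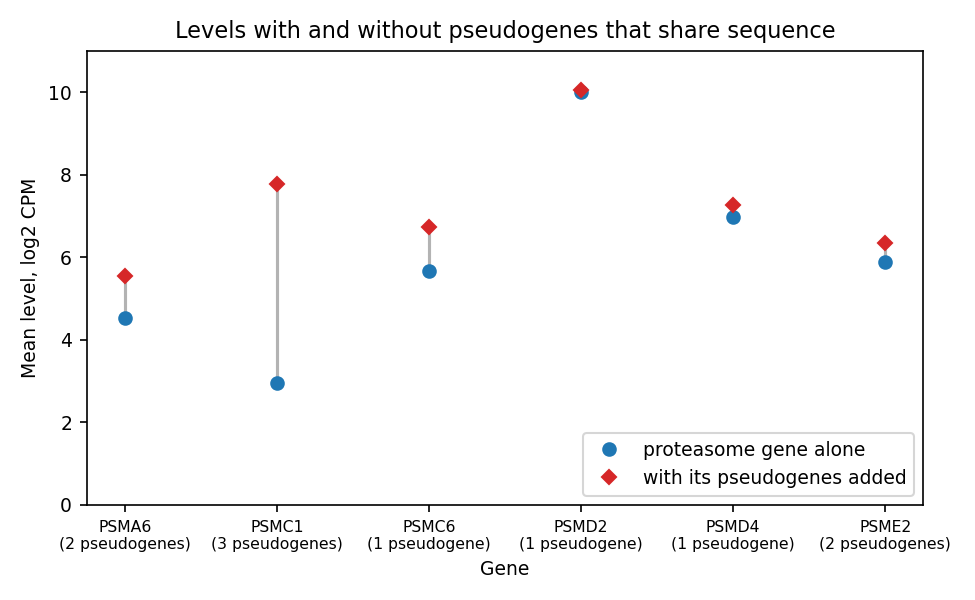
For the 6 proteasome genes with pseudogenes in the table, circles give the mean level over both groups (y axis, log2 CPM) of the gene alone and diamonds that of the gene with its pseudogenes added. PSMC1 moves from 2.94 to 7.77, and PSMD2 from 9.999 to 10.05.

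Windows were also found on the opposite strand of another gene for 5 genes. The shares were 78.1% for PSMC1, whose locus overlaps that of NRDE2 (4.24 log2 CPM), and 44.8% for PSMD7, opposite AC009120.2 (1.43 log2 CPM). In PSMC5, PSME4 and PSMD11 they were 3.10%, 1.14% and 0.821%. The libraries were prepared with a stranded protocol, and the strand setting of the counting is not given in the sources used here.

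Proteasome genes are known targets of NFE2L1, a transcription factor that acts through antioxidant response elements, and their promoters were searched for short motifs. RefSeq promoter windows (GRCh38.p14, 250 bases before to 50 after the start) were at hand for 41 of the 47 genes and 9764 genes of the table. An exact form of the core of the element, TGACTCAGC on either strand, was in 0 of 41, against 0.645% of the 9764 genes. With so low a share among all genes, 0 of 41 cannot show a lack of the element. A gene was counted when any of its windows held the motif. The relaxed form TGANNNNGC, which takes in the first, was in 26 (63.4%), against 51.1%. CCAAT, the core of the NFY site, was in 19 (46.3%), against 43.6%, and GGGCGG, the core of the SP1 site, in 28 (68.3%), against 77.9%. The relaxed form was found for 8 of 10 core particle genes and 9 of 16 regulatory particle genes. The core particle genes PSMA7, PSMB1, PSMB6 and PSMB7 and the regulatory particle gene PSMD4 had no window. These counts therefore cover only part of each particle. A match is only a match of letters, and these windows leave out elements farther away.

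The other genes of the pathway, 24 that were listed for their roles, were all in the table, and 22 lay above its median per kb. The subunits outside the naming rule were high: SEM1, of the lid, was at 7.48 log2 CPM per kb and ADRM1, a ubiquitin receptor, at 7.02. UBB, which encodes polyubiquitin, was higher, at 8.61. UBA1, the main ubiquitin-activating enzyme, was at 7.60 and VCP, the unfoldase that delivers many substrates, at 7.44. NFE2L1 was at 5.89 and NGLY1 and DDI2, which process it, were at 4.08 and 1.45. DDI2 and the base chaperone PAAF1, at 1.71, were the 2 genes below the table's median per kb. Without scaling by length, DDI2 at 4.86 log2 CPM was above the table's median of 4.58, and PAAF1 at 4.02 was below it.

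The markers of the cell line were checked in the same way. VIM, CD44, MSN, CAV1, AXL and ANXA1, which mark mesenchymal-like breast lines, were between percentiles 97.4 and 99.3 of the table per kb. ESR1 and PGR, the hormone receptor genes, and PTPRC, CD3E and CD68, which mark blood cells, were not among the table's genes. Of the other genes listed as low or absent, CDH1 and FOXA1 were at percentiles 23.2 and 12.4 per kb. ERBB2 at percentile 71.6, EPCAM at 50.2 and GATA3 at 46.8 were not low in the table.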

How the data were processed

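RNA was isolated from MDA-MB-231 Fluc cells and stranded, ribo-depleted libraries were sequenced as 75-base paired-end reads by the authors, 2 libraries per group. Per the paper's methods, reads were mapped to GRCh38.p13 and counted with rsubread. The submitters' processing notes name TopHat, HTSeq, DESeq and Cufflinks and the build hg38. The normalization, the filter on low counts, the strand setting and the handling of reads with several matches are not given in the sources used here. The deposited table holds 1 mean log2 CPM per gene over all 4 libraries, and this was used as deposited. Further columns hold the change between cordycepin and vehicle on the log2 scale, with the statistic of a test and its raw and adjusted p-values. These are the authors' own comparison and were not used. There are no values per library, so the depth is unknown, no SD or interval was computed and no test was made. The replicates could not be compared with each other.

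The level per kb is the log2 CPM minus the log2 of the length in kb of the canonical transcript of GENCODE release 44. The table and GENCODE gave the same start and end for 40 of the 47 genes. Windows of 75 bases of the canonical transcripts of the 47 genes were compared with all GENCODE transcripts on both strands. A simpler form of the same-strand search passed on simulated data, but the search that gave the results was not itself tested. The sequences of stretches were taken from the GENCODE transcripts. Protein identity is over globally aligned translations of GENCODE coding sequences. Promoter windows were from RefSeq (GRCh38.p14). Python 3.11.15, numpy 2.4.6, pandas 2.3.3, Biopython 1.88 and matplotlib 3.10.9 were used. All 47 genes were named by role, with the highest and lowest of each role and all catalytic, chaperone and activator genes given with their values. Members, lists and comparisons were chosen with earlier results of these data known. Alternatives were other transcript lengths, no length, 1 CPM added before the log2, the mean for the median, a filter that kept genes above the lowest 25% of log2 CPM, SEM1 and ADRM1 added to the regulatory particle, and motifs on 1 strand only. The values of 2 listed genes outside the 47 are not reported here.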

Additional observations from a re-analysis of the deposited data

How the results depend on the processing

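The values are means over both groups without replicates, so a value was counted as moved when it changed by more than 0.5 log2 units or 5 percentage points, and the core particle median stayed above that of the regulatory particle under each alternative run. No paired analysis was possible because the table holds 1 mean per gene and no value per library, and leaving out replicates was not possible for the same reason. The order of other groups did change. The core particle chaperones lay below the regulatory particle chaperones (4.44 and 4.06) with the longest transcript and the union of exons, and the activators lay above the regulatory particle with the union of exons. With the longest transcript, the medians per kb were 5.68 for the regulatory particle, 5.44 for the activators, 4.12 for the core particle chaperones and 2.77 for the inducible catalytic genes. The core particle was then 1.20 above the regulatory particle, its range was 7.86, and the shares of PSMB9 and PSMB8 in their pairs were 3.78% and 12.3%. With the union of exons, the medians were 6.09 for the core particle, 4.82 for the regulatory particle, 4.95 for the activators, 3.65 for the core particle chaperones and 2.26 for the inducible catalytic genes. The difference of the particles was 1.28, the range of the core particle 7.72 and the share of PSMB8 11.7%. With no length, the medians were 7.30 log2 CPM for the regulatory particle, 6.22 for the core particle chaperones and 5.81 for the regulatory particle chaperones, the difference of the particles was 0.079, and the ranges of the core and regulatory particles were 5.47 and 7.06. With the mean, the core particle was at 6.51. With only genes above the lowest 25% of log2 CPM, the inducible catalytic genes were at 4.59 and the PSMB10 pair gave no value. Adding 1 CPM moved none of 12 values, and adding SEM1 and ADRM1 to the regulatory particle gave a difference of 0.55. Both of the next alternatives were chosen after seeing the data. Without genes that share windows, the inducible catalytic genes were at 4.59 and the ranges of the core and regulatory particles were 3.05 and 2.47. With pseudogenes added, and each sum scaled by the length of the gene itself, the range of the regulatory particle was 3.39. On the plus strand of the gene alone, the relaxed element was in 51.2% of the promoters, CCAAT in 31.7% and GGGCGG in 36.6%, against 32.2%, 25.6% and 57.8% of all genes with a window. The cause of these shifts was not tested beyond what each alternative changes.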
